A study of Rattus norvegicus with 6 samples.

Results

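ABC drug efflux pumps are membrane proteins that spend ATP to push drugs, toxins and their conjugates out of cells. The set described here holds 9 rat genes: the multidrug resistance proteins Abcc1 to Abcc6, the P-glycoprotein genes Abcb1a and Abcb1b, and the breast cancer resistance protein gene Abcg2. They were chosen by name, and every non-control probe whose RefSeq accession belongs to one of them was taken. This gave 21 of 61537 probes, with 1 to 4 probes per gene, and 9 of the 15645 genes named on the array. All 21 probes passed the filter on dim signal, so all 9 genes were among the 12130 tested.

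In the kidney these pumps work on the side of the cell where they sit. In the proximal tubule, the pumps of Abcc2, Abcc4, Abcb1a, Abcb1b and Abcg2 stand in the brush border and release their load into urine. The products of Abcc1, Abcc3, Abcc5 and Abcc6 are mostly placed on the blood side in polarised epithelia. Abcc-type pumps carry glutathione, glucuronide and sulfate conjugates, which detoxifying enzymes make from reactive compounds. Several Abcc genes are known to be switched on by NRF2, a transcription factor activated by oxidants and electrophiles.

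The tissue was renal cortex of male Sprague-Dawley rats, 5 weeks old at purchase and kept on a basal diet. Control animals received corn oil for 4 weeks. Treated animals received 4-hydroxy-m-phenylenediammonium dichloride, the dihydrochloride of 2,4-diaminophenol, at 100 mg/kg/day for 4 weeks; for the compound, neither vehicle nor route is given in the sources used here. There were 3 animals per group and 1 Cy3 array per animal, and the comparison asks which transcripts change in the cortex under the compound. The 3 control arrays lay on slide 1 and the 3 treated arrays on slide 2, which were scanned separately. In every value below, slide and treatment cannot be told apart.

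Each level is a log2 signal after subtracting the log2 of the array's own 75th percentile, so 0 is the level of that percentile and 1 unit is a doubling. Between 63.1% and 69.6% of probes were well above background on an array. All 7 bright spike-in probes had lower means on the treated arrays. Their median difference was -0.14 on the log2 scale, treated minus control, with a range of -0.18 to -0.07. Some of the small negative differences given below are no larger than this. All 8 proximal tubule markers tested were above background on all 6 arrays, as were the 5 podocyte and 5 principal cell markers. In bulk tissue, fewer cells of a type and less RNA per cell cannot be told apart. The control replicate 3 array stood apart in the sum of 5 liver genes: their linear signal was 27.1 times the 75th percentile there and 1.23 to 2.21 on the other 5 arrays. Alb, Ttr, Serpina1 and Apoa2 stood far higher on that array. Fgb differed less, at a log2 level of 1.21 there and 0.49 in control replicate 1. Values from fits without that array are given for Abcc2, Abcc3, Abcc4 and Abcb1a.

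Of the 9 pump genes, Abcc4 rose and the other 8 did not pass the test. At the threshold used throughout, a limma p-value adjusted over all genes under 0.05, 1 of 9 pump genes was called higher and 0 lower, where 3.05% of all genes tested were called higher and 1.33% lower. At an unadjusted limma p under 0.05, 3 pump genes were higher (Abcc2, Abcc3 and Abcc4) and 1 was lower (Abcc6), against 11.8% and 13.2% of all genes. The same 4 genes were those with no overlap between the groups, against 14.1% of all genes higher and 18.7% lower. The median log2 fold change of the 9 genes was 0.038 and that of all genes tested was -0.030. When every probe was fitted on its own, 6 of the 21 pump probes were called higher and 0 lower, where 4.97% and 1.74% of all 40988 kept probes were called. The groups did not overlap in 8 pump probes that were higher and 1 that was lower, against 16.6% of all kept probes in each direction. The 6 probes belonged to Abcc4 and Abcc3. Probes of a gene share its transcript and are not replicates of each other.

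**Figure D1:**
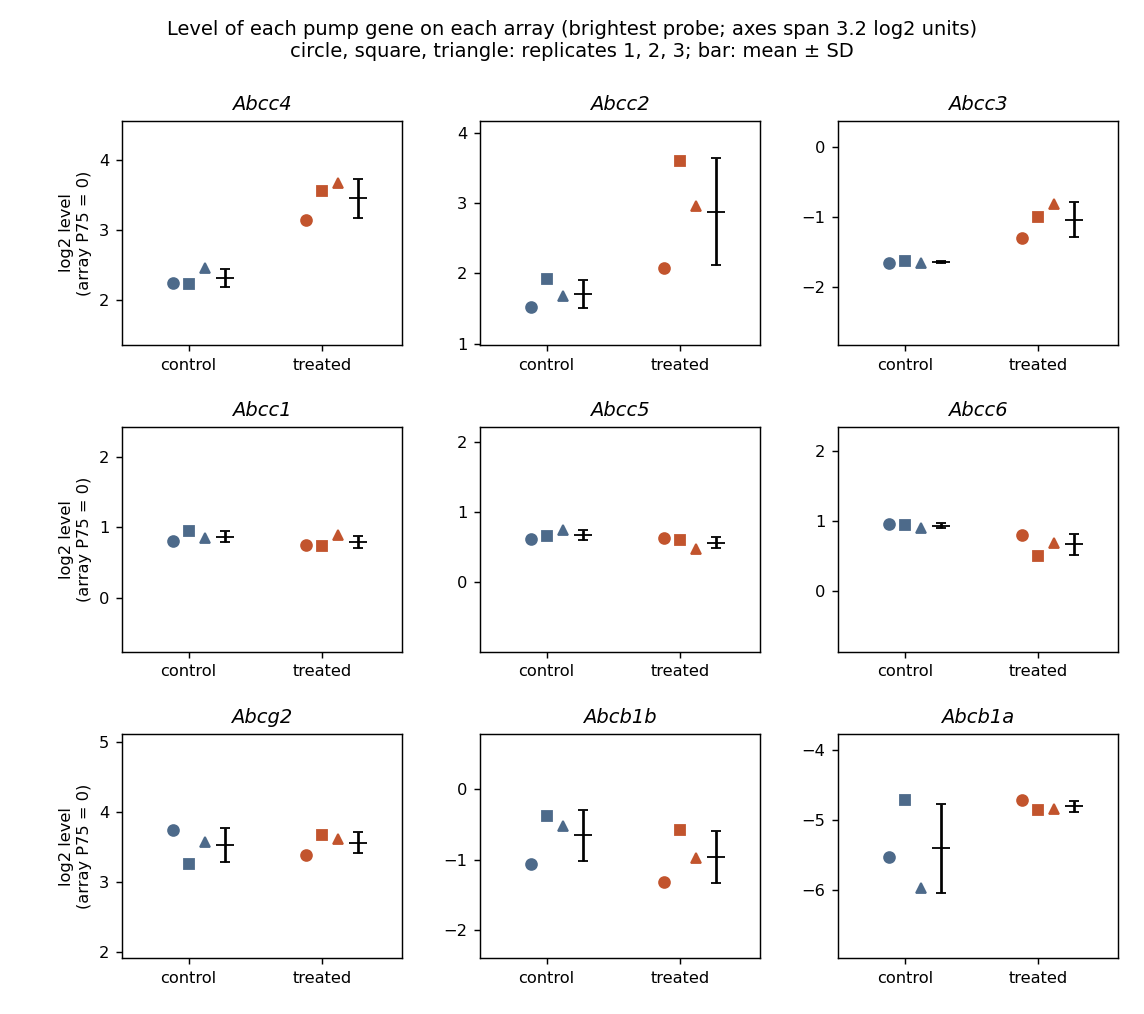
Log2 level of each pump gene at its brightest probe (y axis, 0 is the 75th percentile of the array) on the 3 control (blue) and 3 treated (orange) arrays, with mean ± SD. The treated arrays lie above all control arrays for Abcc4, Abcc2 and Abcc3 and below them for Abcc6, and the groups overlap for the other 5 genes.

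Abcc4 encodes MRP4, a brush border pump for organic anions, cyclic nucleotides and urate. At its brightest probe, A_64_P057340, the log2 level was 2.24, 2.24 and 2.46 in the control animals and 3.14, 3.56 and 3.66 in the treated animals. Every treated animal was above every control animal, and the lowest treated value belonged to replicate 1. The means were 2.31 ± 0.13 and 3.45 ± 0.28 (SD, n = 3 each), a 2.21-fold rise (log2 fold change 1.14, SE 0.15, limma adjusted p = 0.0287). Relative to the control mean, the 3 treated animals stood at 1.77-fold, 2.38-fold and 2.55-fold.

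The other 3 Abcc4 probes gave the same picture. Probe A_44_P344679 read -1.65, -1.49 and -1.37 in controls and -0.40, -0.08 and -0.21 in treated animals. Its log2 fold change of 1.28 (SE 0.12, limma adjusted p = 0.00476 over all probes) was the largest of the 4 Abcc4 probes. Probe A_44_P257526 was at 1.18 (limma adjusted p = 0.0275) and probe A_64_P093599 at 0.90 (limma adjusted p = 0.0459). In all 4 probes the groups did not overlap. The gene-level call for Abcc4 was lost in 5 of the 6 limma fits that left out 1 array, with adjusted p of 0.0734, 0.0845 and 0.0730 without control replicates 1, 2 and 3 and of 0.0955 and 0.0913 without treated replicates 2 and 3. It held without treated replicate 1 (adjusted p = 0.0450). The log2 fold change ran from 1.04 to 1.30 in these 6 fits, and probe A_44_P344679 stayed under the threshold in each of them. Over 10 alternatives at the probe level, the call was lost in 5 for A_64_P057340 (limma adjusted p up to 0.0694), in 6 for A_44_P257526 (up to 0.0973) and in 7 for A_64_P093599 (up to 0.137).

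Abcc3 encodes MRP3, a pump of the blood-facing membrane with a preference for glucuronides. At the probe used for the gene, A_42_P572725, the controls lay close together at -1.66, -1.62 and -1.65, and the treated animals at -1.30, -0.997 and -0.81. All treated values were above all control values. The 1.52-fold difference (log2 fold change 0.61, SE 0.13) did not pass at the gene level (limma adjusted p = 0.0595) or at the probe level (adjusted p = 0.0517).

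Both other Abcc3 probes did pass. Probe A_64_P033761 read -3.20, -3.20 and -3.25 in controls and -2.60, -2.34 and -2.28 in treated animals (log2 fold change 0.81, SE 0.096, limma adjusted p = 0.0108). Probe A_44_P221974 read -3.21, -3.16 and -3.00 against -2.55, -2.38 and -2.20 (log2 fold change 0.75, SE 0.11, adjusted p = 0.0204). With the mean of its 3 probes as the gene's value, Abcc3 was called (log2 fold change 0.72, limma adjusted p = 0.0386). The probe-level call of A_44_P221974 was lost without control replicate 1 (adjusted p = 0.0636), control replicate 2 (adjusted p = 0.0742), treated replicate 2 (adjusted p = 0.0803) or treated replicate 3 (adjusted p = 0.0602). That of A_64_P033761 was lost without treated replicate 2 (adjusted p = 0.0535). Over all 10 alternatives at the probe level, the call was lost in 6 for A_44_P221974 (limma adjusted p up to 0.0803). For A_64_P033761 it was lost in 2 (up to 0.0654). With a normexp background the Abcc3 gene value was 0.41 on the log2 scale, and the 2 called probes were at 0.52 and 0.46.

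Abcc2 encodes MRP2, the brush border pump for glutathione and glucuronide conjugates, and has a single probe. Its log2 level was 1.53, 1.91 and 1.68 in controls and 2.08, 3.60 and 2.97 in treated animals. The treated animals spread widely: relative to the control mean they stood at 1.29-fold, 3.71-fold and 2.39-fold, and treated replicate 1 lay just above the highest control. The mean difference was 2.26-fold (log2 fold change 1.17, SE 0.38, 95% interval 0.23 to 2.12) and did not pass (limma adjusted p = 0.137). Without treated replicate 1 the log2 fold change was 1.58 (adjusted p = 0.0765 at the gene level and 0.0473 at the probe level), and without treated replicate 2 it was 0.81 (adjusted p = 0.232 at the gene level). Without control replicate 3, the array with liver transcripts, the values were 1.16 for Abcc2 (adjusted p = 0.259), 0.60 for Abcc3 (adjusted p = 0.145) and 1.21 for Abcc4 (adjusted p = 0.0730).

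**Figure D2:**
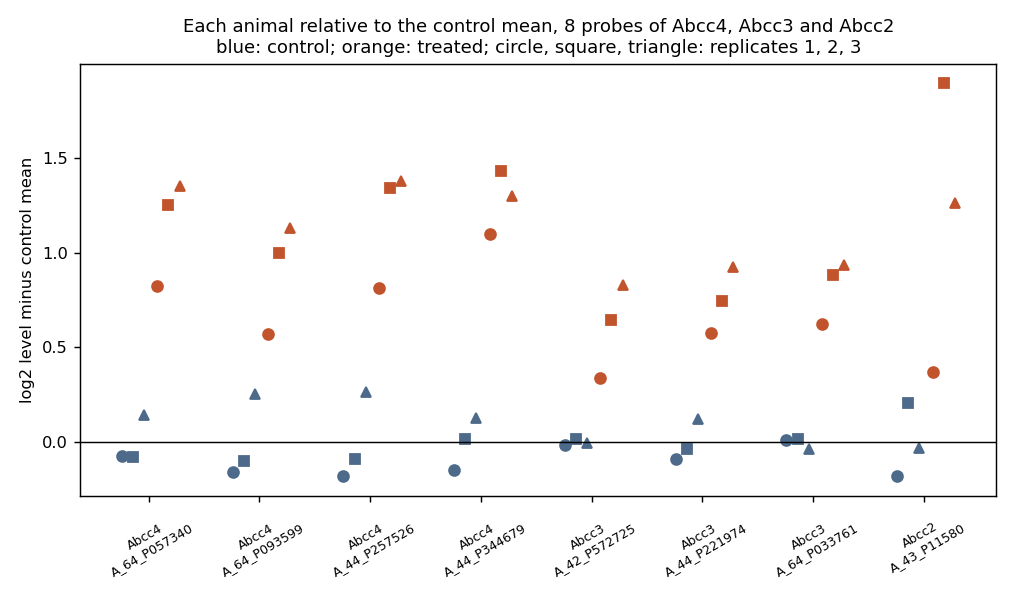
Log2 level of each animal minus the control mean of the same probe (y axis) for the 4 Abcc4, 3 Abcc3 and 1 Abcc2 probes (x axis), controls in blue and treated animals in orange. Treated replicate 1 (circle) is the lowest treated animal in all 8 probes, and no treated value falls among the controls.

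Treated replicate 1 was the lowest treated animal in 8 of 8 probes of Abcc2, Abcc3 and Abcc4, genes picked after their values were seen. Probes of a gene share its transcript, so these are not 8 separate results. Among genes, this animal was the lowest treated one in 11 of 15 NRF2 targets, 37.4% of all genes tested and 34.9% of genes called higher. Nqo1, a quinone reductase and a standard NRF2 target, read -0.99, -0.06 and 0.49 in the treated animals against -2.93, -2.58 and -3.21 in controls. Among the treated animals, replicate 1 also had the lowest summed signal of red blood cell, proximal tubule and principal cell markers. It was lowest too for Slc12a3, the 1 distal convoluted tubule marker tested. The proximal tubule sums lay close together, at 1342, 1348 and 1379 in treated replicates 1, 2 and 3. Replicate 1 did not have the lowest sum for podocyte, thick ascending limb, intercalated cell, endothelial, leukocyte, platelet, liver or smooth muscle markers. Of 8 red blood cell markers tested, all had higher means in treated animals and 7 were above background on all 6 arrays. The 1 called marker, Gata1 (limma adjusted p = 0.0387), was well above background on 0 control arrays. It passed the filter through the treated group alone. Of all genes tested, 3.05% were called higher. The sum of the 8 markers on the linear scale was 436 to 569 in controls and 667, 977 and 1027 in treated replicates 1, 2 and 3. Of 8 proximal tubule markers 1 was called lower, where 1.33% of all genes were. Their summed signal was 1406 to 1521 in controls and 1342 to 1379 in treated animals. The part of any marker list in the pump results was not tested. The sum of 5 endothelial markers was 33.7 to 35.1 in controls and 29.0 to 34.6 in treated animals.

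The promoters of the brush border pumps with the largest measured differences are shown for the letters of response elements. RefSeq windows on assembly GRCr8 ran from 250 bases before to 50 after the annotated start. They were given for 7 of the 9 genes, and none was given for Abcc3 or Abcc5. Capitals mark matches on either strand to TGACNNNGC, the core of the antioxidant response element that NRF2 binds, or to GCGTG, the core of the xenobiotic response element that the aryl hydrocarbon receptor binds. The Abcc4 window lies at chr15:102181315-102181614 on the minus strand, and the Abcc2 window at chr1:252613625-252613924 on the plus strand.
Abcc4: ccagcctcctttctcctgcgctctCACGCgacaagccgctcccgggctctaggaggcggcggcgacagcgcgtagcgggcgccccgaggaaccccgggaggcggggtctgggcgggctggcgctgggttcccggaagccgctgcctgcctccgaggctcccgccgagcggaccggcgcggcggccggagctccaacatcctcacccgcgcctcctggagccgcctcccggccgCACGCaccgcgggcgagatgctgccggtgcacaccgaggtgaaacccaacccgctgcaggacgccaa
Abcc2: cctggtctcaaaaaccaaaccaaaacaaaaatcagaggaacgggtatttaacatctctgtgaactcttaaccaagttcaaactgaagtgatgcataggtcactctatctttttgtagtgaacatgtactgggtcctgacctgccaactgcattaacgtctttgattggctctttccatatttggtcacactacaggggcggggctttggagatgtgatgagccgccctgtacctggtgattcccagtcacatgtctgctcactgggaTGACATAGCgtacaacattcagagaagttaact

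The Abcc4 window held 2 matches to the xenobiotic core, both on the reverse strand as CACGC and starting at positions -226 and -17 from the annotated start, and 0 matches to the antioxidant core. The Abcc2 window held 1 match to the antioxidant core, TGACATAGC, beginning at base 18 after the start, and 0 to the xenobiotic core. Of the other 5 windows, those of Abcc1 and Abcg2 held 1 xenobiotic core each and those of Abcc6, Abcb1a and Abcb1b held neither core. A direct repeat of the nuclear receptor site AGGTCA, its copies spaced by NNNN, was also searched on both strands and was in 0 of the 7 windows. Of all 33469 RefSeq windows of this length, 12.1% held the antioxidant core, 29.7% the xenobiotic core and 0.00598% the direct repeat. The windows also differed in base composition, with 75.3% G or C for Abcc4 and 44.7% for Abcc2.

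Abcc6, Abcc1 and Abcc5 had lower means in treated animals, and none passed. Abcc6 encodes MRP6, whose loss causes the mineralising disorder pseudoxanthoma elasticum. Its single probe read 0.96, 0.95 and 0.90 in controls and 0.81, 0.51 and 0.69 in treated animals. All treated values were below all controls, with a 1.20-fold difference (log2 fold change -0.27, SE 0.088, 95% interval -0.49 to -0.05, limma adjusted p = 0.139). The log2 fold change of Abcc6 ran from -0.34 to -0.19 over 15 other ways of processing or leaving out an array, and none of them called it.

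Abcc1 encodes MRP1, the widely expressed pump for glutathione conjugates such as leukotriene C4. At the probe used for the gene it read 0.80, 0.95 and 0.85 in controls and 0.75, 0.74 and 0.89 in treated animals, so the groups overlapped. Its 4 probes had log2 fold changes from -0.16 to -0.08, with a 95% interval of -0.25 to 0.10 at the probe used for the gene (limma adjusted p = 0.557). Abcc5, whose product MRP5 exports cyclic nucleotides, read 0.61, 0.66 and 0.74 in controls and 0.63, 0.60 and 0.47 in treated animals. Its log2 fold change was -0.11 (95% interval -0.28 to 0.06, limma adjusted p = 0.387), and its other probe gave -0.07.

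Abcg2 encodes BCRP, a brush border pump that works as a pair of like subunits and carries urate and sulfate conjugates. It read 3.74, 3.26 and 3.57 in controls and 3.39, 3.67 and 3.62 in treated animals. The groups overlapped almost fully, with a log2 fold change of 0.04 (SE 0.14, 95% interval -0.32 to 0.40, limma adjusted p = 0.900). The other Abcg2 probe followed the first on every array, at 3.67, 3.19 and 3.43 in controls and 3.24, 3.59 and 3.49 in treated animals, with a log2 fold change of 0.007. Its sign turned with a normexp background (-0.11).

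Abcb1a and Abcb1b encode the rodent P-glycoproteins, which expel many bulky hydrophobic drugs. They are close copies that lie next to each other in the rat genome beside Abcb4, the phospholipid flippase of bile, and whether a probe of one also picks up the other was not tested. Abcb1b read -1.07, -0.37 and -0.52 in controls and -1.32, -0.58 and -0.98 in treated animals at the probe used for the gene. The groups overlapped, with a log2 fold change of -0.31 (SE 0.25, 95% interval -0.94 to 0.32, limma adjusted p = 0.491). The remaining Abcb1b probes were at -0.18 and 0.13, so the 3 probes did not share a direction.

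Abcb1a was near the limit of detection. Its single probe was well above background on 1 of 3 control arrays and on 3 of 3 treated arrays. It read -5.53, -4.72 and -5.96 in controls and -4.71, -4.86 and -4.85 in treated animals. The log2 fold change of 0.60 (SE 0.31) did not pass (limma adjusted p = 0.297). It was 0.001 with a normexp background, 0.94 without control replicate 2 and 0.31 without control replicate 3, so its size rested on how dim signal was treated and on single controls. Abcb4 had a log2 fold change of -0.48 (SE 0.19, limma adjusted p = 0.193).

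**Figure D3:**
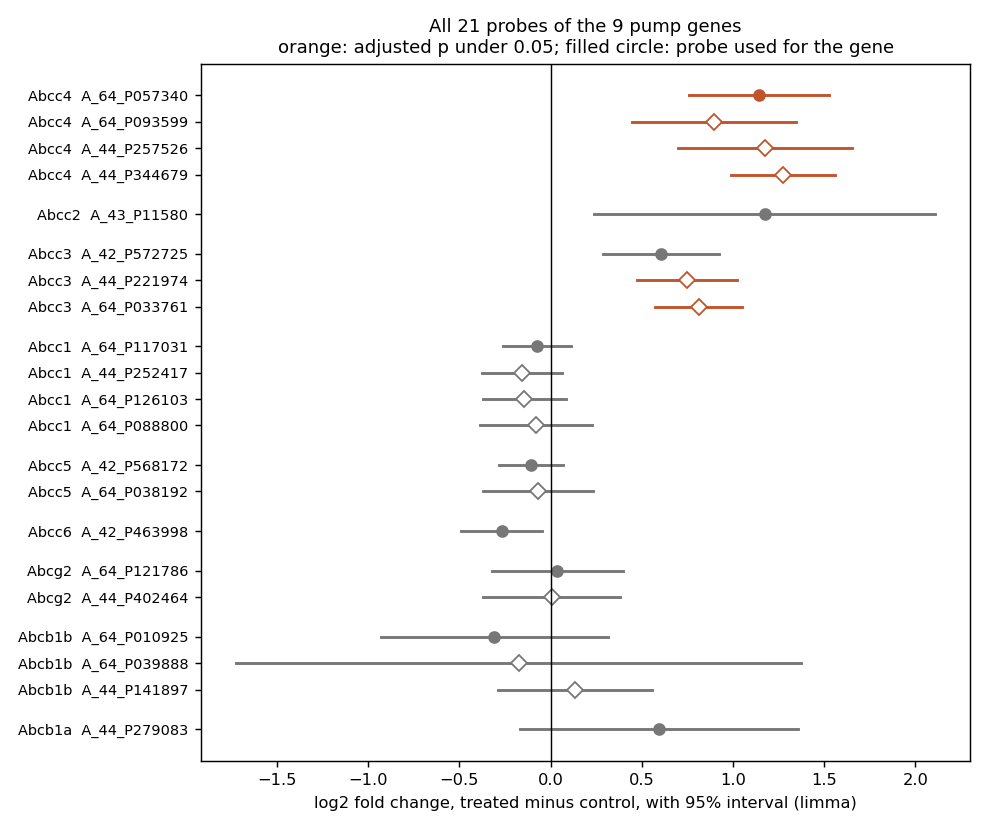
Log2 fold change, treated minus control, with its 95% interval from limma (x axis) for each of the 21 probes of the 9 pump genes (y axis), with adjusted p under 0.05 over all kept probes in orange. The 4 Abcc4 probes and 2 of the 3 Abcc3 probes are called higher, and the intervals of all Abcc1, Abcc5, Abcg2, Abcb1a and Abcb1b probes include 0.

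Other ABC genes, which move lipids, peptides, iron or acyl chains or act in translation, were taken as a list. Of 43 listed, 28 were tested, with 1 higher, 1 lower and 26 not passing, where 3.05% of all genes were called higher and 1.33% lower, and the list's median log2 fold change was -0.045. Abcf1, a translation factor with no membrane part, fell 1.27-fold from 4.48 ± 0.04 to 4.14 ± 0.02 (SD, n = 3 each; limma adjusted p = 0.0334). The remaining Abcf1 probes were at -0.18 and -0.23 on the log2 scale and did not pass. The Abcf1 call was lost in each limma fit that left out 1 array, and its adjusted p reached 0.137 over all alternatives.

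Enzymes known as NRF2 targets include some that make conjugates for these pumps. Of 15 NRF2 targets tested, a list chosen with earlier results of these data known, 7 were higher, 0 lower and 8 did not pass. Of all genes tested, 3.05% were called higher and 1.33% lower. The list's median log2 fold change, 0.98, was the value of Slc7a11. Like Gclm, Slc7a11 was well above background on 0 control arrays, so both passed the filter through the treated group alone. Without 1 array, 0 to 4 of the 15 were called. The glutathione S-transferase gene Gstm1 had a log2 fold change of 3.84 (limma adjusted p = 0.0140) and its relative Gstp1 2.29 (adjusted p = 0.0150). Nqo1 had 2.72 (adjusted p = 0.0310), the microsomal epoxide hydrolase gene Ephx1 1.37 (adjusted p = 0.0449) and the aldehyde reductase gene Akr7a3 1.13 (adjusted p = 0.0310). The seventh, Gsta3, had 0.90 (adjusted p = 0.0457). Gclm, which encodes the regulatory part of glutamate-cysteine ligase, had no control array on which its probe was well above background. On the processed signal, treated animals were at least 2.81-fold higher for it (limma adjusted p = 0.0370). That bound was taken against the lowest signal well above background on each control array, and applies to the processed signal only. With a normexp background the log2 fold change of Gclm was 0.68 (limma adjusted p = 0.0149), against 2.93 as measured. The size for this dim probe thus rested on how background was treated.

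The transcription factors known to act on pump genes showed 1 call among 16 tested, with a median log2 fold change of -0.031. Of all genes tested, 3.05% were called higher and 1.33% lower. The transcripts of Nfe2l2, which encodes NRF2, and of its inhibitor Keap1 differed by -0.21 (limma adjusted p = 0.188) and by -0.16 (0.151) on the log2 scale. Both were singled out after their values were seen. Of 6 genes that anchor pumps in the membrane, 0 were called by limma. At an unadjusted limma p under 0.05 there were 0, against 11.8% of all genes higher and 13.2% lower. Pdzk1, a brush border scaffold, and Msn, which encodes moesin, came nearest to the threshold. Pdzk1 differed by -0.12 on the log2 scale (limma adjusted p = 0.375) and Msn by 0.11 (limma adjusted p = 0.424).

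Uptake and other efflux carriers for drugs were taken as a list, with 21 organic anion, organic cation, peptide and nucleoside carriers tested. Limma called 0 of them, where 3.05% of all genes were called higher and 1.33% lower. At an unadjusted limma p under 0.05, 0 were higher and 1 was lower, against 11.8% and 13.2% of all genes. The median log2 fold change of the carriers was -0.13. Treated means were higher for 4 carriers and lower for 17, against 5281 higher and 6849 lower among all 12130 genes tested. The smallest p belonged to Slco2b1, an organic anion carrier (log2 fold change -0.26, limma adjusted p = 0.185), and Slc15a2, a peptide carrier of the brush border (log2 fold change -0.90, adjusted p = 0.213).

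**Figure D4:**
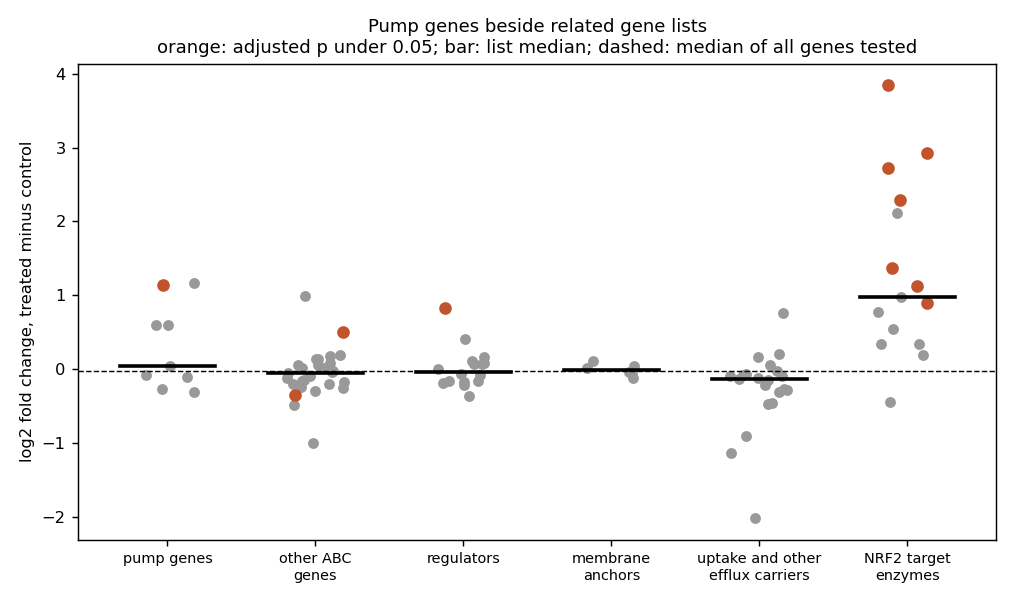
Log2 fold change, treated minus control (y axis), of each tested gene in 6 lists (x axis), with called genes in orange, list medians as bars and the median of all genes tested (-0.030) as a dashed line. The medians of the pump genes (0.038), other ABC genes (-0.045) and uptake and other efflux carriers (-0.13) lie closer to the dashed line than that of the NRF2 targets (0.98). The last is the value of Slc7a11, which was well above background on 0 control arrays.

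Among 856 tested genes with an SD of at least 0.5 over the 6 arrays, the 5 whose levels followed Abcc4 most closely were Rgs11, Pir, Gstp1, Ephx1 and Ugt2b7, with Pearson r from 0.984 to 0.990 over the 6 arrays. The arrays form 2 groups, so this r rests mostly on the gap between groups relative to the spread within them. It is given as a description. In each of these 5 genes, as in Abcc4, replicate 1 was the lowest treated animal. They were picked for following Abcc4 on these arrays, so this shared order is partly set by the choice and is no separate result. Pir, an iron-binding protein gene, had log2 levels of -0.14 ± 0.13 in controls and 1.82 ± 0.37 in treated animals (SD, n = 3 each). Ugt2b7, a glucuronosyltransferase gene whose products Abcc2 and Abcc3 pumps can carry, had a log2 fold change of 6.15 (limma adjusted p = 0.0240), although its family holds near-identical copies whose signal one probe may share. Rgs11, a regulator of G protein signalling, had 1.80 at this probe (adjusted p = 0.0281) and 0.57 and -0.04 at its other probes.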

How the data were processed

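Cortical RNA of 6 rats was labelled with Cy3 and read on 1-colour Agilent arrays, 1 per animal. The deposited intensity values come from version 10.7.1.1 of Agilent Feature Extraction per the file headers, given as 10.7 in the submitters' processing notes. The deposited value table holds each signal as a ratio to the 75th percentile of its array, as found by setting it against the scanner values (median quotient 0.998 on each array). Here the deposited processed signal was put on the log2 scale and the array's own 75th percentile, taken across 61537 non-control probes, was subtracted.

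A probe was kept if all 3 arrays of either group had it well above background. A gene was represented by its kept probe with the highest mean, and named through RefSeq accessions (28206 of 61537 probes were named). Treated and control arrays were compared with limma 3.58.1 in R 4.3.3 (lmFit and eBayes, 6 arrays, no block), with Benjamini-Hochberg adjustment over 12130 genes or 40988 probes and a threshold of 0.05. The script was tested on simulated data. The design text calls the animals biological replicates, so p-values measure the spread between animals, and 3 arrays per group limit the precision.

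Named with values were all pump genes and probes. In each related list, up to 6 called genes of largest change were named, or the 2 of smallest p. For Abcc4 the 5 tested genes most correlated with it were named. Called genes of 2 lists that this rule would name are not reported here. The pump genes and the lists were chosen with earlier results of these data known. Alternatives covered background, scaling, filter, the deposited table, replicate block, intensity trend, mean of probes and leaving out each array. The normexp background (offset 50) used the median spot signal. A slide or scan block could not be fitted, since each slide and scan held 1 group. Replicate numbers were not taken as pairs.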

Additional observations from a re-analysis of the deposited data

How the results depend on the processing

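The number of genes called by limma, 531 as reported (370 higher, 161 lower), was 945 with a normexp background (449 higher, 496 lower), 836 with an intensity trend (441 higher, 395 lower), 292 with the mean of probes (229 higher, 63 lower), 44 with no filter and 0 with the replicate block (2547 genes at an unadjusted p under 0.05). Without 1 array it was 0 to 47, with 2461 to 2666 genes at an unadjusted p under 0.05. Pump genes called, 1 as reported, were 0 with no filter, 0 with the replicate block, 2 with an intensity trend, 2 with the mean of probes and 0 to 1 without 1 array. Pump probes called, 6 as reported, were 3 with no filter, 1 with the replicate block and 1 to 8 without 1 array. Abcc4 had an adjusted p of 0.0621 with no filter and 0.109 with the replicate block. Same-numbered animals had correlations of their deviations from the group means of -0.12, -0.11 and 0.089, so the numbers are not taken as pairs; not every animal correlated best with its own number. Signs turned in pump results near 0. Without 1 array, Abcg2 ran from -0.093 to 0.145 (the same at its probe A_64_P121786), Abcg2 probe A_44_P402464 from -0.115 to 0.126, Abcb1b probe A_64_P039888 from -0.82 to 0.25, Abcb1b probe A_44_P141897 from -0.0058 to 0.315, Abcc1 probe A_64_P088800 from -0.196 to 0.0014 and Abcc5 probe A_64_P038192 from -0.14 to 0.0357. Abcg2 probe A_44_P402464 was -0.11 with normexp. The cause of these shifts was not tested, except that no filter tests more genes and leaving out an array leaves fewer samples. Of 583 alternative values of single genes and probes, 439 kept their direction and side of the threshold, 4 gained a call, 15 changed sign and the others lost their call. Low signal limited Abcb1a and Gclm, which the filter on all 6 arrays left out.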
